A study of Mus musculus with 2 samples.

Results

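CpG methylation was examined at 6 genes of 2 imprinted domains on mouse chromosome 6, Peg10, Sgce, Ppp1r9a and Asb4 in the Peg10 domain and Mest and Copg2 in the Mest domain. The members were all CpG cytosines in the bodies of these genes, or within 1 kb of an annotated transcription start, that had at least 5 reads in each library and lay outside CCGG and TCGA, the sites cut by MspI and TaqαI. They numbered 458 of the 1850635 such cytosines in the genome. These 458 cytosines belonged to 284 CpGs on 105 restriction fragments, and the 6 genes were picked by name from 55413 annotated genes. A further 378 cytosines of these genes lay inside a restriction site and were kept apart.

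The data came from reduced representation bisulfite sequencing (RRBS), which cuts genomic DNA with restriction enzymes, keeps short fragments and converts unmethylated cytosines so that they are read as T. Mouse C3H myoblasts, a muscle precursor cell line, had been differentiated in culture into myotubes, and DNA was taken 48 h after transfection of either a control short interfering RNA (siCon, 1 library) or of one that targets H19, a long non-coding RNA (siH19, 1 library). The question was where methylation differed after the H19 siRNA. With 1 library per group, every p-value below compares the reads of these libraries and not the conditions, and intervals cover counting error only. Reads of a region are summed over its cytosines, so that a read on several cytosines is counted several times. Over a region, intervals and p-values therefore come out too small. The level of H19 RNA was not measured by this assay. The siCon and siH19 libraries covered 5453019 and 5266846 cytosines, at 12 and 13 reads in the median, and summed over cytosines these were 104999613 and 106372792 reads. At the 458 cytosines, the median depth was 22 reads in siCon and 20 in siH19.

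In genomic imprinting, a gene is expressed mainly from the copy inherited from one parent, and the copies are told apart by DNA methylation laid down in the germ line at a differentially methylated region. The promoter shared by Peg10 and Sgce, and the CpG-rich promoter of Mest, are such regions: the maternal copy carries the methylation and the paternal copy is expressed. DNA from a whole culture mixes the parental copies, so that a region methylated on a single copy is read at an intermediate level. RRBS reads as deposited here do not separate the copies, and a level that differs between copies and one that differs between cells cannot be told apart. Peg10 is a gene derived from a retrotransposon and needed for the placenta, Sgce encodes the membrane protein ε-sarcoglycan, Ppp1r9a encodes neurabin, an actin-binding partner of protein phosphatase 1, Asb4 encodes a protein with ankyrin repeats and a SOCS box, Mest encodes a protein of the hydrolase fold family, and Copg2 encodes a subunit of the coat of COPI vesicles.

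The sequences that frame the results are printed in lower case on the plus strand of GRCm38, 5′ to 3′. In the following segments capitals mark the measured CpGs. Measured were 3 of the 4 CpGs in the Sgce segment, 4 of 10 in the Mest segment, 13 of 14 in the Ppp1r9a segment and 11 of 15 in the Copg2 segment.

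Sgce first intron, chr6:4746902-4746945: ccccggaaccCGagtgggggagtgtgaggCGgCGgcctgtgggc

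Mest first intron, chr6:30738385-30738577: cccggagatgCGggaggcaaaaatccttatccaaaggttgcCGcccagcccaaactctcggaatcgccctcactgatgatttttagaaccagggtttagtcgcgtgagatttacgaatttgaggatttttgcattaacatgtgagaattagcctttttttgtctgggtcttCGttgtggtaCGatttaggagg

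Ppp1r9a first intron, chr6:4903107-4903202: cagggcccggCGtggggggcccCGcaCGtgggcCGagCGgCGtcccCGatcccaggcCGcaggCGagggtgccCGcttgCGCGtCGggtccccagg

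Copg2 upstream sequence, chr6:30896801-30896929: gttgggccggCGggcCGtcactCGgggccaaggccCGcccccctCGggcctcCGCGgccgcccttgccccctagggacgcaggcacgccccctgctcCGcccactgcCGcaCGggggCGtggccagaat

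The stretch between the divergent starts of Sgce and Peg10 held 13 CpGs, in capitals here, and not a single one was covered at the read minimum.

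Sgce to Peg10 start-to-start segment, chr6:4747208-4747305: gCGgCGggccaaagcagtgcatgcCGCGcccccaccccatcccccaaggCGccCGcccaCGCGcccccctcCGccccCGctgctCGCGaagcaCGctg

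The promoter shared by Peg10 and Sgce (chr6:4746116-4748406) was read at about the same intermediate level in both libraries. The level over its 22 cytosines was 31.9% in siCon (95% Wilson interval 28.3 to 35.7%, 596 reads) and 33.7% in siH19 (29.9 to 37.7%, 555 reads). The difference between libraries was taken within each cytosine and then weighted over cytosines (the Mantel-Haenszel difference), since the libraries spread their reads unequally over cytosines. It was 3.52 ± 2.81 points (SE), with an interval of -1.97 to 9.02 points, and was not called (Cochran-Mantel-Haenszel chi-square test, adjusted p = 0.506 over 21165 promoters). With a minimum of 10 or 20 reads per cytosine the difference was 6.01 ± 2.87 and 6.37 ± 3.04 points, not called either (chi-square unadjusted p = 0.038 for both, adjusted p = 0.195 and 0.187), with intervals that reached 11.6 and 12.3 points and so past the 10 points of a call. The unweighted mean of the 22 cytosines differed the other way, by -1.05 points, so that the direction depended on the weighting.

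All 22 cytosines of this promoter lay between 14.8 and 66.7% in siCon and between 16.7 and 46.2% in siH19, and none was at 0 or above 80% in either library. Of the 22, 12 in siCon and 16 in siH19 were at 30 to 70%. By comparison, the median promoter of the genome was at 4.43% in siCon and 4.39% in siH19, 59.1% of promoters were under 10% in siCon, and 13.3% were at 30 to 70% in both libraries. The promoter therefore ranked at the 75.7th percentile of level in siCon and at the 95.8th percentile by its share of cytosines at 30 to 70%.

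The covered CpGs of the shared promoter fell on 2 restriction fragments, 1 on either side of the starts, and each DNA strand of a fragment was read by its own reads. On the Peg10 side, a fragment of 91 bp in the first exon held 7 CpGs (chr6:4747418-4747485). Its 7 plus-strand cytosines were at 14.8 to 25.9% in siCon and at 33.3 to 41.0% in siH19. The same 7 CpGs on the minus strand were at 25.6 to 39.5% in siCon and 26.7 to 31.0% in siH19. At 6 of the 7 plus-strand cytosines, all at 27 reads in siCon and 39 in siH19, the differences ran from 12.5 points (4747418, 25.9 against 38.5%, Fisher's exact test p = 0.426) to 22.5 points (4747460, 18.5 against 41.0%, Fisher's exact test p = 0.0646), and none passed. The 7 cytosines of a strand sit on 1 fragment at nearly equal depth, share their reads and are not 7 independent measurements.

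On the Sgce side, a fragment of 211 bp in the first intron and first exon held 4 covered CpGs (chr6:4746912-4747111). Its plus-strand cytosines were at 55.6 to 66.7% in siCon, from at most 18 reads, and at 16.7 to 33.3% in siH19, from 6 reads. Its minus-strand cytosines were at 20 to 35.3% in siCon and 25 to 46.2% in siH19. The plus strand thus stood lower in siH19 on the Sgce side and higher in siH19 on the Peg10 side, while the minus strand moved little on either. Over the whole promoter, the plus-strand difference was 10.0 points and the minus-strand difference -2.22 points. At the 11 CpGs read on both strands, the libraries differed in the same direction on both strands at 3 and in opposite directions at 8. These 11 CpGs sit on 2 fragments and share reads, so that they are not 11 independent observations. Methylation of a CpG is as a rule copied to both strands, and the median gap between strands of a CpG within siCon was 16.0 points and within siH19 8.46 points, beside a median gap between libraries of 19.2 points for plus-strand and 4.10 points for minus-strand cytosines. The gap between libraries on the plus strand was thus near the gap between strands in siCon and over that in siH19.

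**Figure D1:**
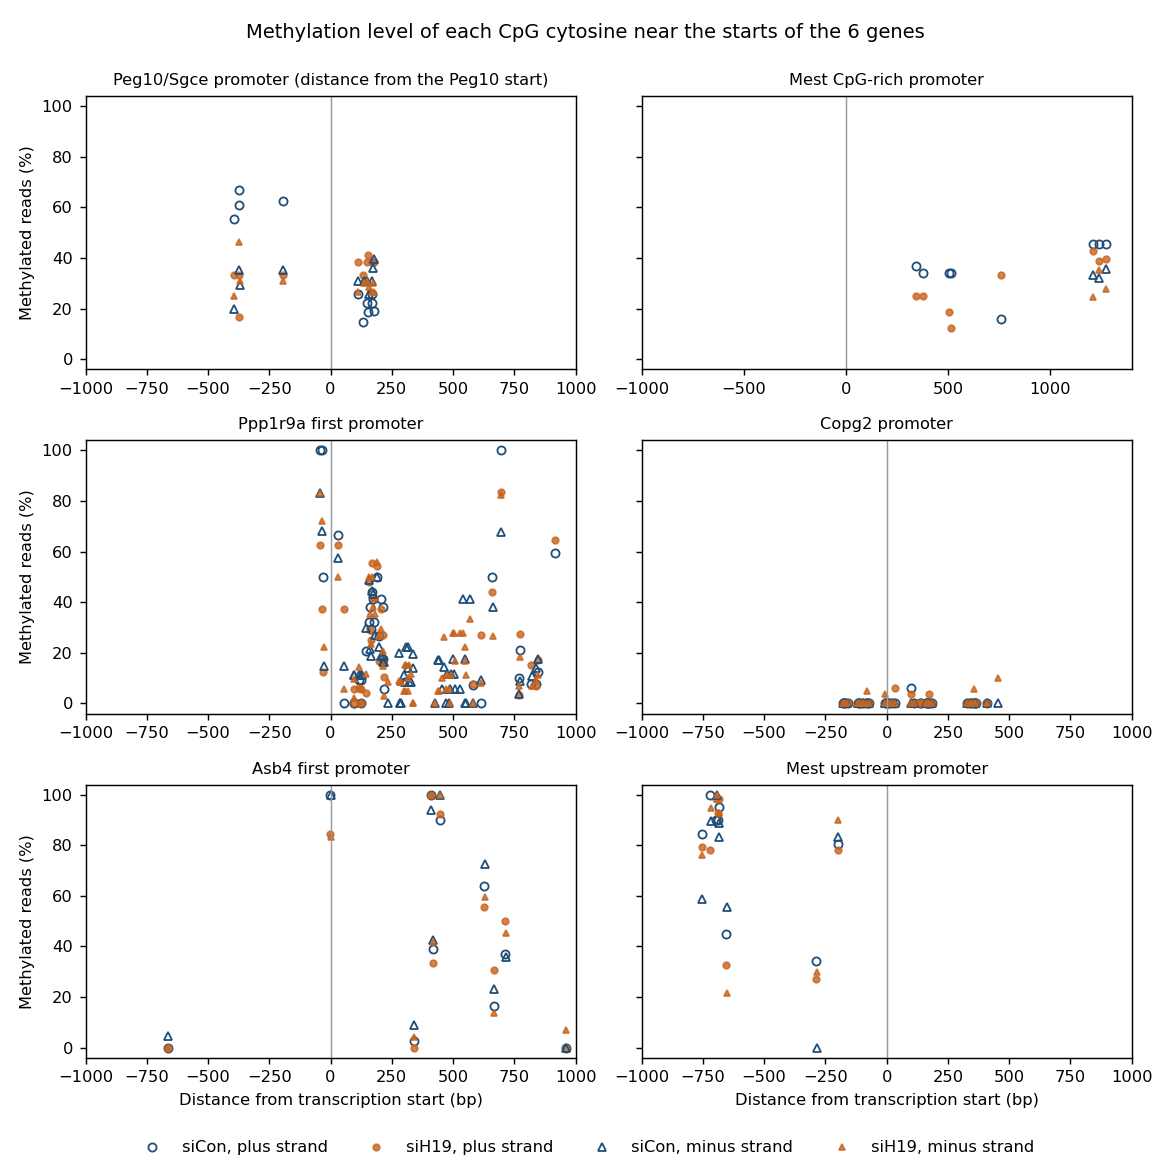
Methylation level (percent of reads methylated) of each CpG cytosine against distance from the transcription start in bp, for 6 promoters, with siCon in blue open symbols, siH19 in orange filled symbols, circles for the plus strand and triangles for the minus strand. The Peg10/Sgce and Mest CpG-rich cytosines sit between 12.5 and 66.7%, those of Copg2 lie at or near 0, and those of Asb4 run from 0 to 100%; the 6 cytosines per library beyond 1000 bp in the Mest panel belong to the gene body.

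Mest has several annotated starts. The CpG-rich start at 30738050, which is the known differentially methylated region, was covered at only 5 of the 110 CpGs in its window (chr6:30737050-30739053). The Peg10/Sgce window was covered at 11 of 146. All 5 Mest cytosines lay on the plus strand. The level was 32.5% in siCon (26.6 to 39.1%, 212 reads) and 21.9% in siH19 (14.0 to 32.7%, 73 reads). The Mantel-Haenszel difference was -10.6 ± 5.85 points, with an interval of -22.0 to 0.875 points, and was not called (chi-square adjusted p = 0.322). At this depth a fall of 10 points can neither be shown nor be left out.

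Cytosine by cytosine, the 4 on a fragment of 214 bp in the first intron stood at 37.0, 34.0, 34.0 and 34.0% in siCon, from up to 47 reads. In siH19 they stood at 25, 25, 18.8 and 12.5%, from 16 reads each. All 4 were lower in siH19. The other cytosine, at 30738809, was higher in siH19, at 16.0% of 25 reads in siCon and 33.3% of 9 reads in siH19. Fisher's exact test gave p-values of 0.121 to 0.757 at these 5 cytosines. With only the deepest cytosine of each fragment counted, so that a read enters once, the levels of the libraries were 27.8% of 72 reads (18.8 to 39.0%) and 28.0% of 25 reads (14.3 to 47.6%). The deepest cytosine on the fragment of 214 bp was tied among 3, and the first (30738426) was taken, so that the equal levels depend on that choice: the others stood at 18.8 and 12.5% in siH19. The same count for Peg10/Sgce gave 34.7% of 101 reads in siCon (26.1 to 44.3%) and 35.2% of 88 reads in siH19 (26.1 to 45.6%).

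A fragment of 79 bp just past the Mest window, in the gene body (chr6:30739261-30739324), was read on both strands. Its 3 plus-strand cytosines averaged 45.5% in siCon and 40.4% in siH19. Its 3 minus-strand cytosines averaged 33.7% in siCon and 29.2% in siH19. At the deepest of these, 30739288 on the plus strand, 45.5% of 66 reads in siCon and 38.8% of 85 reads in siH19 were methylated (Fisher's exact test, p = 0.506). No difference was detectable at this depth.

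**Figure D2:**
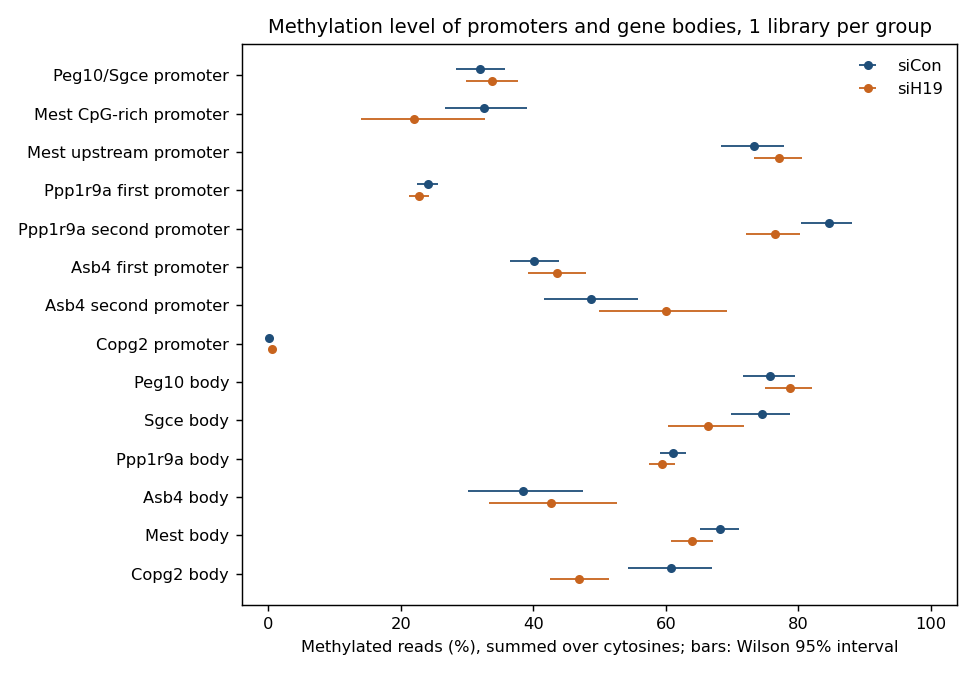
Methylation level in percent of summed reads for the 8 promoters and 6 gene bodies, siCon in blue and siH19 in orange, with Wilson 95% intervals. These cover counting error only, and they are too narrow because cytosines of a fragment share reads. The Peg10/Sgce promoter stands at 31.9 and 33.7%, the Copg2 promoter at 0.139 and 0.545%, and the Mest CpG-rich promoter has the widest interval of the promoters other than the second Asb4 promoter.

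At the promoter shared by Peg10 and Sgce and at the CpG-rich start of Mest, levels of neighbouring CpGs on the same fragment strand were more even than on most fragment strands of the genome. The spread was measured as the SD of the cytosine levels on 1 strand of 1 fragment, over all fragment strands of the genome with a mean level of 20 to 80% in each library. On the Peg10 exon fragment with 7 CpGs it was 4.05 points in siCon and 2.31 points in siH19 on the plus strand, and 4.43 and 1.87 points on the minus strand. Among 21803 fragment strands with at least 5 cytosines, the median SD was 21.7 points in siCon and 21.3 points in siH19, and these strands stood at the 1.26th and 0.362nd percentile (plus) and the 1.44th and 0.248th percentile (minus). On the Sgce-side fragment with 4 CpGs the SD was 4.59 and 8.33 points on the plus strand and 7.22 and 9.07 points on the minus strand, from fewer reads. On the Mest fragment with 4 CpGs the SD was 1.46 points in siCon and 5.98 points in siH19, and on the fragment just past it from 0 to 5.60 points. Among 51704 fragment strands with 3 or 4 cytosines, the medians were 24.0 and 23.5 points. The Sgce-side strands stood between the 2.78th and 10.2nd percentile of these, and the Mest fragment with 4 CpGs at the 0.884th in siCon and the 4.75th in siH19. A low spread was not limited to the imprinted promoters: in the Mest body before the CpG-rich start, a fragment of 152 bp (chr6:30735146-30735285) had SDs of 6.67 and 12.7 points on the plus strand and 8.25 and 10.9 points on the minus strand, at means of 46.7 to 66.7%. A low spread also does not fix the level, since the Mest fragment with 4 CpGs averaged 34.8% in siCon and 20.3% in siH19.

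The cytosines of the first Asb4 promoter were far less alike. That promoter (chr6:5382386-5384386) was at 40.1% in siCon (36.4 to 43.9%) and 43.5% in siH19 (39.2 to 47.9%), but its 20 cytosines ran from 0 to 100% in each library. On 1 fragment of 102 bp, 3 neighbouring CpGs (plus strand 5383725, 5383794 and 5383804) stood at 2.78, 100 and 38.9% in siCon. The same cytosines stood at 0, 100 and 33.3% in siH19. Their minus-strand partners stood at 9.09, 93.9 and 42.4% in siCon and at 4.17, 100 and 41.7% in siH19. This pattern of an unmethylated, a methylated and an intermediate CpG thus recurred in both strands and both libraries, and the SD on this fragment was 42.7 to 49.1 points in siCon and 48.3 to 50.9 points in siH19. A mean in the intermediate range came here from CpGs at opposite ends of the scale. Among fragment strands with 3 or 4 cytosines, the plus strand stood at percentiles 95.5 in siCon and 96.9 in siH19. The minus strand stood at 88.7 and 94.9. A wide spread was not limited to Asb4: the SD reached 41.1 points in siCon and 50.4 points in siH19 in the Ppp1r9a body. In the first Ppp1r9a promoter it reached 41.5 and 32.8 points.

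**Figure D3:**
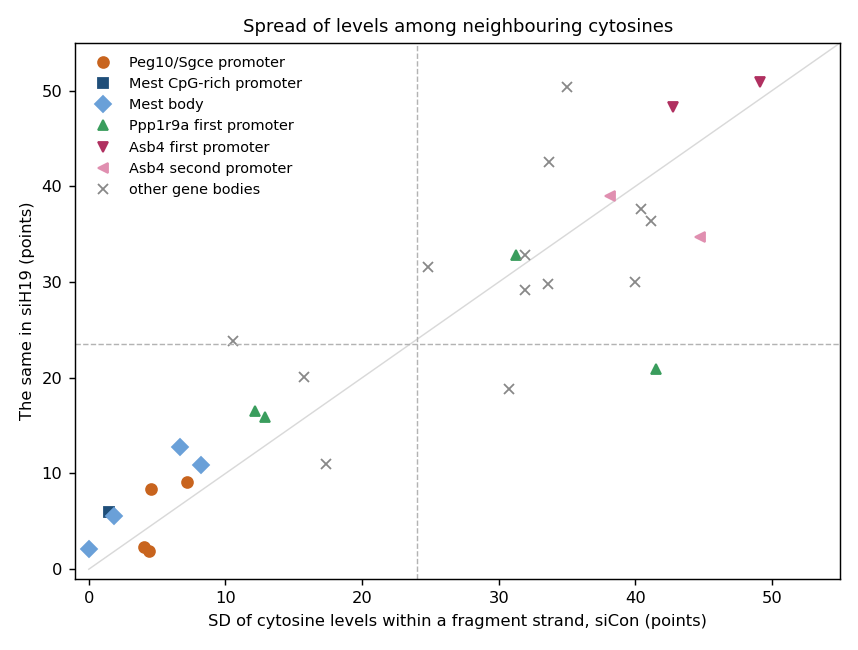
SD in points of cytosine levels within a fragment strand, siCon on the x axis and siH19 on the y axis, 1 symbol per fragment strand of the 6 genes with a mean level of 20 to 80%; dashed lines are the genome medians for fragment strands with 3 or 4 cytosines (24.0 and 23.5 points) and the grey line marks equal SD. Fragment strands of the Peg10/Sgce promoter and of Mest lie at the lower left, and those of the Asb4 promoters at the upper right, along with some of Ppp1r9a.

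No difference between the libraries passed the test at the Asb4 promoters. The Mantel-Haenszel difference was -1.51 ± 2.09 points at the first promoter (chi-square adjusted p = 0.741). At the second (chr6:5389427-5391427) it was 7.68 ± 5.43 points, from a level of 48.6% in siCon and 60.0% in siH19 (chi-square adjusted p = 0.429). The second promoter rested on 185 and 95 reads at 12 cytosines. Its interval, -2.97 to 18.3 points, includes a rise past 10 points. Inside the gene, the body of Asb4 held 5 covered cytosines on 1 fragment, at 38.5 and 42.7%.

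Ppp1r9a carried more measured cytosines than any other of the 6 genes. Its first promoter (chr6:4901974-4904373) was read at 99 cytosines on 67 CpGs. The level was 24.1% in siCon (22.5 to 25.7%, 2844 reads) and 22.7% in siH19 (21.2 to 24.2%, 3031 reads), with a difference of -0.176 ± 1.04 points (chi-square adjusted p = 0.954). The interval of the difference was -2.21 to 1.85 points. Levels fell from 58.5% in the 250 bp before the start to 27.6% in the 250 bp after it and 11.9% in the next 250 bp in siCon. Further along, the 250 bp stretches stood at 33.4% and 14.8%. In siH19 the same 5 stretches were at 52.6, 22.9, 9.15, 34.6 and 19.2%, so that the fall and the later rise were present in both libraries.

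The intron fragment of Ppp1r9a printed above, of 90 bp and with 13 CpGs, had a level close to that of Peg10/Sgce but a wider spread. The mean of its plus-strand cytosines was 32.1% in siCon and 31.3% in siH19, and of its minus-strand cytosines 28.9 and 30.3%. They ranged from 5.88 to 50% (plus) and 16.2 to 50% (minus) in siCon. The SD was 12.2 and 12.9 points in siCon and 16.6 and 15.9 points in siH19, several times that of the Peg10 exon fragment. It was still under the genome medians of 21.7 points in siCon and 21.3 points in siH19. Among fragment strands with at least 5 cytosines these stood at percentiles 12.9 and 15.1 in siCon and 29.7 and 27.0 in siH19. Another fragment of the first promoter, of 129 bp and with 5 CpGs (4902931 to 4903029), was less even. Its SD was 41.5 (plus) and 31.3 points (minus) in siCon and 20.9 and 32.8 points in siH19. These stood at percentiles 96.2 and 80.5 in siCon and 48.7 and 84.2 in siH19. The second Ppp1r9a promoter (chr6:4904416-4906416) was mostly methylated, at 84.6% in siCon and 76.4% in siH19 of summed reads. Within cytosines the difference was -3.01 ± 2.81 points (chi-square adjusted p = 0.584), and by the unweighted mean 0.519 points. With reads summed the difference was -8.23 points (Fisher's exact test, adjusted p = 0.0357), under the 10 points of a call. At the least methylated CpG of that window (minus strand 4906198), siH19 had 52 reads and siCon 33. The deepest cytosine there, 4906173 on the minus strand, was named after its values were seen. It was at 93.7% of 63 reads in siCon and 76.2% of 101 in siH19 (Fisher's exact test, p = 0.00485). Its plus-strand partner was at 80% of 10 reads and 84% of 50 reads.

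Copg2 had an unmethylated promoter (chr6:30895739-30897739). Of 65 cytosines, 64 had no methylated read in siCon and 58 had none in siH19. The level was 0.139% in siCon (2 methylated of 1443 reads, 0.0380 to 0.504%) and 0.545% in siH19 (8 of 1467 reads, 0.277 to 1.07%). The difference of 0.420 ± 0.223 points was not called (chi-square adjusted p = 0.264). Copg2 lies next to Mest and is transcribed towards it, and the level was 32.5 and 21.9% at the CpG-rich start of Mest but near 0 at Copg2. In the printed upstream segment, which overlaps the first exon of the non-coding gene 4930412F09Rik, 22 cytosines at 11 CpGs gave 0% in siCon and 0.277% in siH19.

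The upstream Mest start (30733506, window chr6:30732506-30734506) was methylated at most CpGs. The level was 73.3% in siCon (68.3 to 77.8%) and 77.1% in siH19 (73.3 to 80.5%), with a difference of -0.243 ± 2.63 points (chi-square adjusted p = 0.976). On 1 fragment of 76 bp, 3 CpGs were at 83.3 to 100% on either strand in both libraries. The fourth CpG of that fragment (plus strand 30732852) was at 45.0% in siCon and 32.7% in siH19 on the plus strand. On the minus strand (30732853) it was at 55.6% of 18 reads in siCon and 21.4% of 28 reads in siH19, a fall that met the call for a cytosine by p-value and size (Fisher's exact test, p = 0.0271, adjusted p = 1).

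Of the 6 gene bodies, taken without these promoters, 4 were over 50% in both libraries. The summed level of Peg10 was 75.8% in siCon and 78.7% in siH19, followed by 74.5 and 66.3% for Sgce, 61.1 and 59.5% for Ppp1r9a, and 68.2 and 64.0% for Mest. The Mantel-Haenszel differences of these 4 bodies ran from -2.12 ± 3.12 points (Sgce) to 2.97 ± 2.53 points (Peg10). In an exon further along Peg10 (4755113 to 4755995), the 21 covered cytosines lay between 34.5 and 100% in siCon and between 40.7 and 100% in siH19, against the middle range of the first exon. None of the 4 was called (adjusted p of 0.601 to 0.917).

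The body of Copg2 differed by -13.9 points when reads were summed, from 60.8% in siCon to 46.9% in siH19, but by -0.497 ± 2.26 points within cytosines (chi-square adjusted p = 0.949). Of its 17 cytosines, 6 on the minus strand of 2 fragments (30804640 to 30804657 and 30833909 to 30833932) had no methylated read in siCon. The latter lay on a restriction fragment of 2454 bp. In siH19, 5 of these were also at 0 and the other, 30804657, was at 26.1% of 46 reads. The remaining cytosines stood at 66.7 to 100% in siCon. At the unmethylated cytosines siH19 had 24 to 48 reads each and siCon 10 to 20. Single cytosines of this body differed between the libraries by -11.9 to 26.1 points, in both directions. The cause of the gap between the summed and the within-cytosine difference was not tested.

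**Figure D4:**
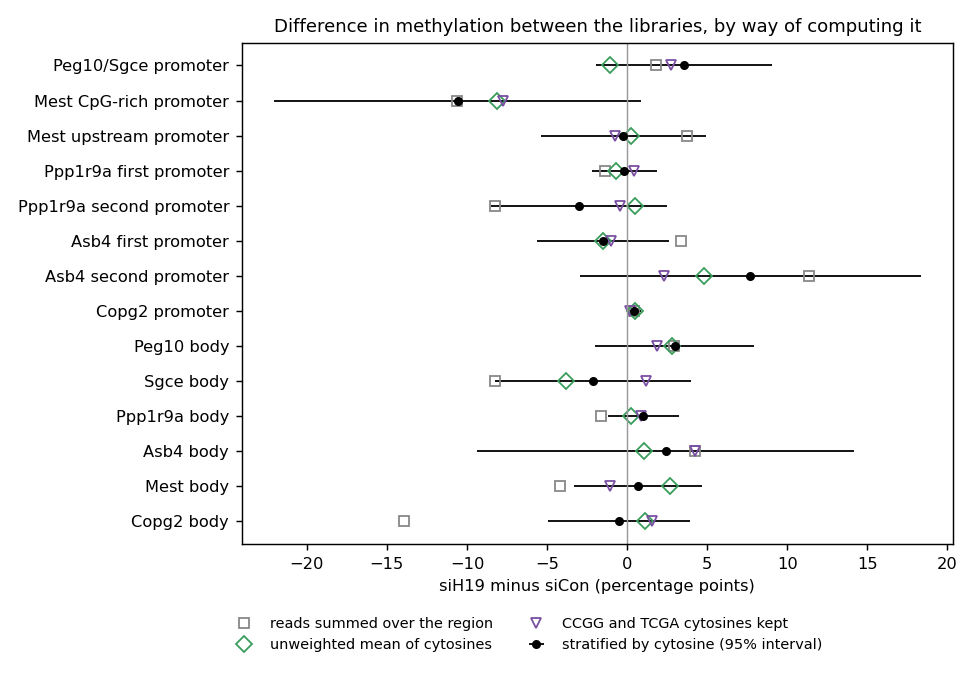
Difference between libraries (siH19 minus siCon, percentage points) for each promoter and gene body, computed in 4 ways, where black points are Mantel-Haenszel differences with 95% intervals. All black intervals include 0, and the value from summed reads at the Copg2 body (-13.9) lies outside its interval of -4.92 to 3.93.

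Called as changed were 0 of the 8 promoters and 0 of the 6 bodies of these genes. Across the genome, 0.666% of promoters and 0.365% of bodies met the call, which required an adjusted p under 0.05 and at least 10 points. An unadjusted Cochran-Mantel-Haenszel p under 0.05 was reached by 0 of the 14 regions, beside 21.2% of promoters and 17% of bodies, and of the 14 Fisher's exact test with reads summed called only the Copg2 body. Among the 2823 promoters at 30 to 70% in both libraries, 46 were called (1.63%). The count of 0 calls is near these shares and says nothing particular about the 6 genes.

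Single cytosines were called at a Fisher p under 0.05 where the levels were at least 33 points apart. Of the 458 cytosines, 6 (1.31%) met this, 2 higher and 4 lower in siH19, beside 0.986% of all cytosines tested (0.519% higher and 0.467% lower). An unadjusted p under 0.05 was reached by 16 of the 458, beside 2.53% of all, and an adjusted p under 0.05 by 0, beside 0.00648% of all (Fisher's exact test). None of the 6 lay in the Peg10/Sgce or the Mest CpG-rich promoter. Besides the Mest cytosine given above, all were in Ppp1r9a, the gene with the most cytosines.

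In Ppp1r9a, the first promoter cytosine 4902938 on the plus strand was at 100% of 6 reads in siCon and 37.5% of 8 in siH19 (Fisher p = 0.0310). Its minus-strand partner was at 68.1% of 47 reads and 72.2% of 18 reads, and did not move with it. In the body, cytosine 4915428 on the minus strand was at 33.3% of 12 reads in siCon and 76.9% of 13 in siH19 (Fisher p = 0.0472), where its partner was at 53.3 and 60.0%. Cytosine 5025830 on the plus strand was at 54.5% of 33 reads in siCon and 88.2% of 17 in siH19 (Fisher p = 0.0264), with its partner at 56.3 and 66.7%. On the same fragment, cytosine 5025971 on the minus strand was at 93.8% of 16 reads in siCon and 55.6% of 9 in siH19 (Fisher p = 0.0403), with its partner at 97.0 and 88.2%. Cytosine 5151555 on the plus strand was at 84.2% of 19 reads in siCon and 33.3% of 6 in siH19 (Fisher p = 0.0324), with its partner at 80.6 and 90.9%. The calls by Fisher's exact test rested mostly on shallow cytosines, and at 3 of these 5 CpGs the other strand moved in the same direction by a smaller amount. The cytosine of lowest p, singled out after its values were seen, was 4903586 (plus strand) in the first Ppp1r9a promoter, with 0 of 27 reads methylated in siCon and 14 of 52 in siH19 (26.9%; Fisher's exact test, p = 0.00167, adjusted p = 0.839). It was under the 33 points of a call, and its partner was at 9.09% of 11 reads and 8% of 25 reads. The other plus-strand cytosine of its fragment, 4903554, had only 14 reads in siCon and 26 in siH19.

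The hexamer TGCCGC, or its reverse complement GCGGCA, holds the CpG that ZFP57 binds when it is methylated. ZFP57 is a zinc finger protein that keeps methylation at imprinted regions after fertilisation. The window of the Mest CpG-rich start held 12 copies, counted on both strands. Among 55413 windows of the same length, centred on the start of each annotated gene of any type, 0.00180% held at least as many. Those windows were not matched for CpG content, and the Mest window held 110 CpGs. How far its CpG number bears on the count was not tested. The Peg10/Sgce window of 2291 bp held 2 (10.6% of windows of its length held as many), while Copg2, the upstream Mest start and the first Ppp1r9a promoter held 1 each and the second Ppp1r9a and the Asb4 promoters none, beside 28.6% of all windows of 2001 bp that held any. The stretch before the CpG-rich Mest start is printed here with the hexamers in capitals.

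Mest, upstream of the CpG-rich start, chr6:30737800-30738049: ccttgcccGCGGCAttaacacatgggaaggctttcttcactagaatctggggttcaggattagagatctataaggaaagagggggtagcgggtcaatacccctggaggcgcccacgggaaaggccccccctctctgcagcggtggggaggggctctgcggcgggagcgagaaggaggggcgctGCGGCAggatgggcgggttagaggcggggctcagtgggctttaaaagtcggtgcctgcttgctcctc

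Of the 12 hexamers at Mest, 1 was covered, at 373 bp after the start, and its plus-strand cytosine was at 34.0% of 47 reads in siCon and 25% of 16 reads in siH19. Neither hexamer of Peg10/Sgce was covered. The hexamer upstream of Copg2 was at 0% on both strands in both libraries. The hexamer at the upstream Mest start was at 90.0 and 98.2% on the plus strand and at 100% in both libraries on the minus strand. The covered copies at Copg2 and at the CpG-rich Mest start were thus near the level of their promoters. The copy at the upstream Mest start was above its promoter, which was at 73.3% in siCon and 77.1% in siH19. A match is a description of the sequence and not a binding site.

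The genes around the domains gave the setting. Of 15 genes listed around Peg10, 11 had a promoter with at least 5 covered cytosines, with a median level of 9.24% in siCon and 7.86% in siH19, and 0 were called. The highest was Col1a2, the gene of a fibrillar collagen chain, at 47.7% in siCon (8 cytosines, difference -9.00 ± 7.14 points), and the lowest was Pdk4, which encodes a pyruvate dehydrogenase kinase, at 0.248% (difference 1.61 ± 0.818 points). Of 8 genes listed around Mest, 3 could be tested: Cep41 at 0.210%, Mkln1 at 0.328% and Klf14 at 78.7% in siCon, with differences of 0.0582 to 0.520 points for Cep41 and Mkln1 and -1.66 points for Klf14, and 0 called. Only 1 of these 14 neighbouring promoters was at 30 to 70% in both libraries.

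Of 13 promoters of 11 other imprinted genes listed for comparison, 11 had at least 5 covered cytosines, 1 for each gene, and 7 were at 30 to 70% in both libraries. Their median level was 34.2% in siCon and 38.2% in siH19, from Plagl1 at 17.7% to Nnat at 97.4% in siCon. The Peg10/Sgce promoter at 31.9 and 33.7% was close to this median. Of the 11, 1 was called, beside 0.666% of all promoters and 1.63% of those at 30 to 70% in both libraries. It was the promoter of the non-coding RNA Kcnq1ot1, at 30.6% in siCon and 48.0% in siH19 (difference 16.2 ± 4.68 points, chi-square adjusted p = 0.0174). The largest fall was at Snrpn (-8.12 ± 5.45 points, not called). The adjusted p also passed at Plagl1 (4.20 ± 1.01 points, chi-square adjusted p = 0.00237) and at Mcts2, named after its values were seen (-6.13 ± 2.04 points, chi-square adjusted p = 0.0424), both under the 10 points of a call. Whether Kcnq1ot1 differed from Peg10/Sgce or Mest in its change was not tested.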

How the data were processed

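DNA methylation was measured by RRBS in 1 siCon and 1 siH19 library. Reads had been aligned with Bismark by the authors' service provider, and per the study's methods filled-in bases were trimmed; cytosines inside the cut sites of the otherwise unmethylated Copg2 promoter read 49.4 and 48.8%, and whether some filled-in bases remain was not tested. The deposited files gave, per CpG cytosine and strand, a text field that held the read counts (methylated and total) beside a percent, which was used, and a score, the methylated fraction times a constant, which the authors derived from the same counts and which matched them in 100% of entries. The submitters' processing notes name mm10 and bcl2fastq 1.8.4; all 6041258 positions checked were CpG cytosines of GRCm38. Genes came from GENCODE basic annotation. Duplicate removal was not given in the sources used here.

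Cytosines with at least 5 reads per library, outside CCGG and TCGA, were tested with Python 3.11.15, numpy 2.4.6 and scipy 1.17.1, strands apart: Fisher's exact test per cytosine, and a Cochran-Mantel-Haenszel test per region of at least 5 cytosines with cytosines as strata, both two-sided with Benjamini-Hochberg adjustment over the genome. Tests were tried on simulated data. Promoters were windows of 1 kb either side of any start, merged where they overlapped; bodies left out the promoters of the 6 genes. By covered cytosines the Mest promoter would be the upstream start, so both Mest starts were named. The members and gene lists were chosen with earlier results of these data known. Among called cytosines, all of the Peg10/Sgce and Mest promoters were named and, elsewhere, up to 3 of lowest p in each direction. Cytosines not called were named as examples, and some not named had a lower p than those called. In the Peg10 body, 4755947 (minus strand) was at 42.2% of 64 reads in siCon and 65.1% of 63 in siH19. In the first Ppp1r9a promoter, 4903668 (plus strand) was at 100% of 34 reads in siCon and 83.7% of 43 in siH19. Fisher's exact test gave p = 0.0127 and 0.0156, but the differences were too small for a call. Of listed genes, the extremes in level and difference and any called were named.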

Additional observations from a re-analysis of the deposited data

How the results depend on the processing

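Of 118 region values under other settings, 99 kept their direction and their side of the threshold, 18 changed sign and 1 became a call. No paired analysis was possible because there was 1 library per group, and for the same reason no replicate could be left out. The call was the Copg2 body, -13.9 points where Fisher's exact test was run with reads summed (adjusted p = 0.00290). Every value that changed sign was of a region not called: for the first Ppp1r9a promoter, 0.0985 points at a minimum of 10 reads and 0.427 with CCGG and TCGA cytosines kept; for the Mest body, -3.54 at a minimum of 20 reads, -1.06 with those sites kept, -4.21 with reads summed and -0.201 with the deepest cytosine per fragment and strand; for the Sgce body, 0.662 at 20 reads and 1.17 with sites kept; for the upstream Mest promoter, 2.23 at 20 reads, 3.74 with reads summed and 6.45 with the deepest cytosine; for the Copg2 body, 1.53 with sites kept; and with reads summed -1.63 for the Ppp1r9a body and 3.37 for the first Asb4 promoter. The cause was not tested. The other 4 came from the unweighted mean, which has no test, at Peg10/Sgce, Mest upstream, the second Ppp1r9a promoter and the Copg2 body.

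At a minimum of 10 and of 20 reads the Peg10/Sgce difference was 6.01 and 6.37 points (chi-square adjusted p = 0.195 and 0.187). The Mest CpG-rich promoter gave -10.6 to -7.75 points under the settings that left it at least 5 cytosines (8 with sites kept), and no value at either read minimum, in a narrower window or with the deepest cytosine. Changed member cytosines numbered 6, 3 at a minimum of 10 reads, 0 at 20 reads, 12 with sites kept (of 836) and 2 with strands summed. Across the genome, 141 promoters were called, 568 with reads summed and 8 with the deepest cytosine alone.

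Reads limit all of this. Cytosines of a fragment share reads, and some in the middle of a fragment had exactly 2 times the reads of their neighbours in a library (66 beside 33 at 30739288), the reason for which was not tested. Intervals and p-values over a region are therefore too small. Cytosines 4903586 (27 and 52 reads) and 4906173 (63 and 101 reads), both named after their values were seen, were also far deeper than a neighbour. On the same strand of their fragments, 4903554 had 14 and 26 reads and 4906198 had 33 and 52. If reads were counted 2 times at such cytosines, which was not tested, their own p-values would be too small as well.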

Other observations

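The cytosines inside CCGG and TCGA, kept apart above, were read at other levels than those between the sites. In the Copg2 promoter the 18 site cytosines were at 49.4% in siCon and 48.8% in siH19, against 0.139 and 0.545% at the 65 others. Of these 18, 8 were at 90% or more and 8 at 10% or less in both libraries. Whether filled-in bases remain among the site cytosines was not tested, so their levels are given as read and not as methylation of the genome. In the Peg10/Sgce promoter the 8 site cytosines were at 66.5 and 65.3%, in the Mest CpG-rich promoter the 3 were at 63.2 and 60.0%, and in the first Ppp1r9a promoter the 22 were at 58.8 and 59.4%. No difference between libraries passed at the site cytosines of the 8 promoters (Cochran-Mantel-Haenszel chi-square test, adjusted p of 0.814 to 0.932).

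Of the neighbouring genes, Bet1, which encodes a vesicle trafficking protein, was at 2.56% in siCon and 0.277% in siH19 at its promoter (-2.79 ± 0.799 points, chi-square adjusted p = 0.0306), under the 10 points of a call.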
